A study of Mus musculus with 16 samples.

Results

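Chemokine receptors and sphingosine-1-phosphate (S1P) receptors are G protein-coupled receptors that steer T cells. The receptors measured here were Cxcr6, Cxcr3, Cxcr4, Ccr2, Ccr4, Ccr7, Ccr8, S1pr1 and S1pr4, 9 genes of the 22328 named on the array. They were taken by their gene symbols in the scanner files, with each gene read from its brightest probe. In the cells labelled Lck-/-, Cxcr6 and Cxcr3 were higher than in WT in the polysomal and in the sub-polysomal RNA. Ccr4, which was dim and entered these tests through WT only, was lower in both. The polysomal differences of Cxcr6, Cxcr3 and Ccr4 did not pass the test on slide 1 alone or without WT replicates 1 and 2. Cxcr4 was lower in the sub-polysomal RNA, by a smaller margin that most other settings lost. Relative to the typical mRNA, 0 of the 4 receptors tested changed their share of RNA on polysomes beyond the threshold of the test. The median ratio of all genes was itself lower in Lck-/- before normalization. With median centring or in the authors' deposited table, which leave that shift, 3 of these receptors passed the test as lower.

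The RNA came from mouse OT-1 T cells, whose transgenic T cell receptor recognises the ovalbumin peptide SIINFEKL. Per the labels, both groups were lymph node T lymphocytes of genotype OT-1het, Rag-/-. The WT group carried no further change (4 extracts), and the other group was also Lck-/- (4 extracts). Lck, a kinase of the Src family, triggers the first steps of signalling from the T cell receptor. The series title adds the word OFF to Lck-/-, and the labels explain neither this word nor which piece of the gene is altered. All cells of both groups were stimulated with the peptide at 100 nM for 24 h. Cycloheximide, which freezes ribosomes on mRNA, was added at 100 µg/ml for 10 min before harvest. Lysates were separated on sucrose gradients of 10 to 50% into fractions 1 to 10. Fractions 1 to 5 made the sub-polysomal pool, with mRNAs that carry few or no ribosomes, and fractions 6 to 10 the polysomal pool, with mRNAs that carry several. A volume of 1.5 µl of each pool was labelled, so the RNA mass of the pools was not equalised.

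Chemokine receptors bind small secreted chemokines, and S1P receptors bind a lipid that is abundant in blood and lymph and scarce inside tissue. Both kinds signal mainly through inhibitory G proteins and make a cell crawl toward the higher concentration. Naive T cells use CCR7 to enter and stay in lymph nodes and S1PR1 to leave them. Activated T cells alter this set, and effector CD8 T cells use receptors such as CXCR3 and CXCR6 to reach inflamed tissue.

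The probes decide what was measured, so those behind the results are shown here by their ends. Per the file headers the coordinates are those of mm9. The files do not say which exon or untranslated region a probe lies in. None of the receptors' probes shared a stretch of 20 bases with a probe of another gene. Cxcr6 had 2 probes of 60 bases, on the plus strand at chr9:123720719-123720778 (brightest) and chr9:123720709-123720768. They shared 50 bases and are therefore no independent measurements. Their last 30 bases are printed first, with the 20 bases common to both printed ends in capitals. The Cxcr3 probe lies at chrX:98926920-98926979, the Ccr4 probe at chr9:114399467-114399526 and the Cxcr4 probe at chr1:130485079-130485138, all on the minus strand. Their last 30 bases follow, with the polyadenylation signal AATAAA in capitals, which stands in the Cxcr4 end and not in the other 2.
Cxcr6, brightest probe: GGACTCTGGTGGCTTTGCTCatctaaaaaa
Cxcr6, second probe: aaatacaagaGGACTCTGGTGGCTTTGCTC
Cxcr3: tctcagtatctcaatatttgcccaatttta
Ccr4: aacagttattcttacgttatcttaattgtt
Cxcr4: gtaaattgAATAAAgctagccgtgatcctc

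The promoters of the receptors that changed in both fractions are shown because these mRNAs moved together in the polysomal and the sub-polysomal RNA. They come from RefSeq on GRCm38.p6, where 7 of the 9 receptors had an entry. Printed are the 250 bases before the annotated start, read on the strand of the gene. Capitals mark GGAAA or its reverse complement TTTCC, the core letters bound by NFAT factors, which act downstream of the T cell receptor. At least 1 match stood in 55.6% of all 32851 promoters. The Cxcr6 window (chr9:123806227-123806476) held 3 matches, the Ccr4 window (chr9:114496545-114496794) 1 and the Cxcr3 window (chrX:101734148-101734397) 0. Among the others, Ccr2 held 3, Cxcr4 and S1pr4 1 each and Ccr8 0. TCACACC, letters of the T-box motif that T-bet and Eomes bind, were searched on both strands too. They stood in 3.33% of all promoters and in 0 of these 7 windows. As TCACACC was not found, no matches of the 2 motifs overlapped. A match is a description of letters and not a binding site.
Cxcr6 promoter: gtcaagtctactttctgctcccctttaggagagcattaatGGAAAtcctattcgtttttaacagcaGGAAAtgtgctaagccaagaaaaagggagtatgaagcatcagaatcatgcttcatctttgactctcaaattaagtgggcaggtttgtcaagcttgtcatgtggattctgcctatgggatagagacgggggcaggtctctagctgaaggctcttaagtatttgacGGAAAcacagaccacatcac
Cxcr3 promoter: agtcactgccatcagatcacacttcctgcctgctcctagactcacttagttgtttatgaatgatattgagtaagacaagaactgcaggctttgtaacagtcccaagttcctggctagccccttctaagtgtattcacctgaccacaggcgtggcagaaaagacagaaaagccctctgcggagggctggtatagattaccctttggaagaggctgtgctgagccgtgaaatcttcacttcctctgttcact
Ccr4 promoter: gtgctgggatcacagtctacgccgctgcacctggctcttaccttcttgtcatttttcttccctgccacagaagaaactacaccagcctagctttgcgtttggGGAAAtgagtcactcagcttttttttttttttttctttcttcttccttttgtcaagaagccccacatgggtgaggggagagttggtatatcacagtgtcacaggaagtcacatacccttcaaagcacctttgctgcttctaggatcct

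Each of the 8 extracts was measured on 2 arrays with exchanged dyes, 16 arrays on 2 slides, with 4 arrays of each genotype on each slide. Between 12531 and 50776 probes per channel stood well above background, and no spot was saturated. The highest number came from 1 array of Lck-/- replicate 1, with the polysomal RNA in Cy5, and the next highest polysomal channel had 26643. WT replicates 1 and 2 each disagreed with the array labelled as their dye swap. Deviations of the ratio from the genotype mean correlated at -0.83 and -0.81 within these extracts, at 0.87 and 0.94 across them, and at 0.46 to 0.85 within the other 6. Their single values may therefore mix both extracts, and results are also given without them. The design calls the extracts biological replicates, but nothing says whether they came from separate animals, so p-values measure the spread between these samples. Lck, the targeted gene, lay at 14.16, 14.36, 14.03 and 14.16 in Lck-/- extracts and at 15.08, 15.16, 14.72 and 15.17 in WT (log2 intensity, mean of both fractions). The log2 difference was -0.85 (SE 0.14, adjusted p = 0.00301 by limma), and Lck was still well detected. The probe may lie outside the altered piece, so this is a limited check of the labels. Of the markers of T cells, 8 of 8 stood above background in both genotypes, as did both CD8 genes and Cd4. Of 4 NK cell markers and 5 markers of stroma and endothelium 0 did, and of 5 B cell markers only Cd79b. Of 6 dendritic cell markers Siglech alone was above background, at 14.78 in WT and 14.90 in Lck-/- (adjusted p = 0.537 by limma). In Lck-/- alone, the neutrophil gene Ly6g (1 of 4 markers) and the red cell gene Hba-a1 (1 of 2 on the array) were above background. The level of Ly6g was nevertheless not higher there, at 8.39 in WT and 8.19 in Lck-/- (adjusted p = 0.367 by limma). The 4 neutrophil markers had a summed linear intensity of 634 to 1159 in WT and 540 to 735 in Lck-/-. Hba-a1 lay at 7.67 and 8.69 (adjusted p = 0.122 by limma). The part of such cells in the results was not tested.

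Cxcr6, the receptor for the chemokine CXCL16, was the receptor with the largest rise among those tested. Averaged over both fractions, log2 intensities were 8.97, 8.97, 8.84 and 9.14 in the WT extracts and 9.83, 10.43, 10.22 and 10.63 in the Lck-/- extracts. Every Lck-/- extract lay above every WT extract, and the lowest of them was replicate 1. WT averaged 8.98 ± 0.12 and Lck-/- 10.28 ± 0.34 (SD, n = 4 each). The difference was thus 1.30 (SE 0.17, adjusted p = 0.00116 by limma), or 2.46-fold. Without WT replicates 1 and 2 it was 1.29 (adjusted p = 0.0177). The rise was 1.46 in the sub-polysomal RNA (SE 0.16, adjusted p = 0.000573) and 1.13 in the polysomal RNA (SE 0.20, adjusted p = 0.00497). In the polysomal RNA WT extracts spanned 8.81 to 9.27 and Lck-/- extracts 9.65 to 10.46. In the sub-polysomal RNA the spans were 8.87 to 9.04 and 10.01 to 10.80. The second probe gave 1.17 in the mean of both fractions. Within the slides the mean differed by 1.26 (adjusted p = 0.00763) on slide 1 and by 1.33 (adjusted p = 0.00517) on slide 2. The polysomal call was lost without WT replicates 1 and 2 (1.08, adjusted p = 0.0665) and on slide 1 alone (1.12, adjusted p = 0.0739). In RNA from bulk cells, a change in the number of cells of a kind and a change in RNA per cell cannot be told apart.

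Cxcr3, the receptor for the interferon-induced chemokines CXCL9, CXCL10 and CXCL11, rose as well. In the mean of both fractions its values were 9.46, 9.50, 10.03 and 9.71 in WT and 10.10, 10.83, 10.83 and 10.77 in Lck-/-. The groups did not overlap, but Lck-/- replicate 1 stood far below its 3 companions and close to the highest WT extract. The means were 9.67 ± 0.26 and 10.63 ± 0.35 (SD, n = 4 each), a difference of 0.96 (SE 0.19, adjusted p = 0.00723), or 1.94-fold. The difference was 0.94 in the polysomal RNA (SE 0.22, adjusted p = 0.0184) and 0.97 in the sub-polysomal RNA (SE 0.19, adjusted p = 0.00613). On slide 1 alone the mean differed by 0.99 (adjusted p = 0.0267) and on slide 2 alone by 0.92 (adjusted p = 0.0166). Without WT replicates 1 and 2 it was 0.76 (adjusted p = 0.0695), and the sub-polysomal difference was 0.79 (adjusted p = 0.0545). The polysomal call was also lost on slide 1 alone (0.98, adjusted p = 0.157), without WT replicate 2 (0.86, adjusted p = 0.0584) and without Lck-/- replicate 3 or 4 (0.86 and 0.87, adjusted p = 0.0529 and 0.0600). It was lost without both WT replicates 1 and 2 (0.73, adjusted p = 0.168) and with median centring (0.59, adjusted p = 0.155) as well.

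**Figure D1:**
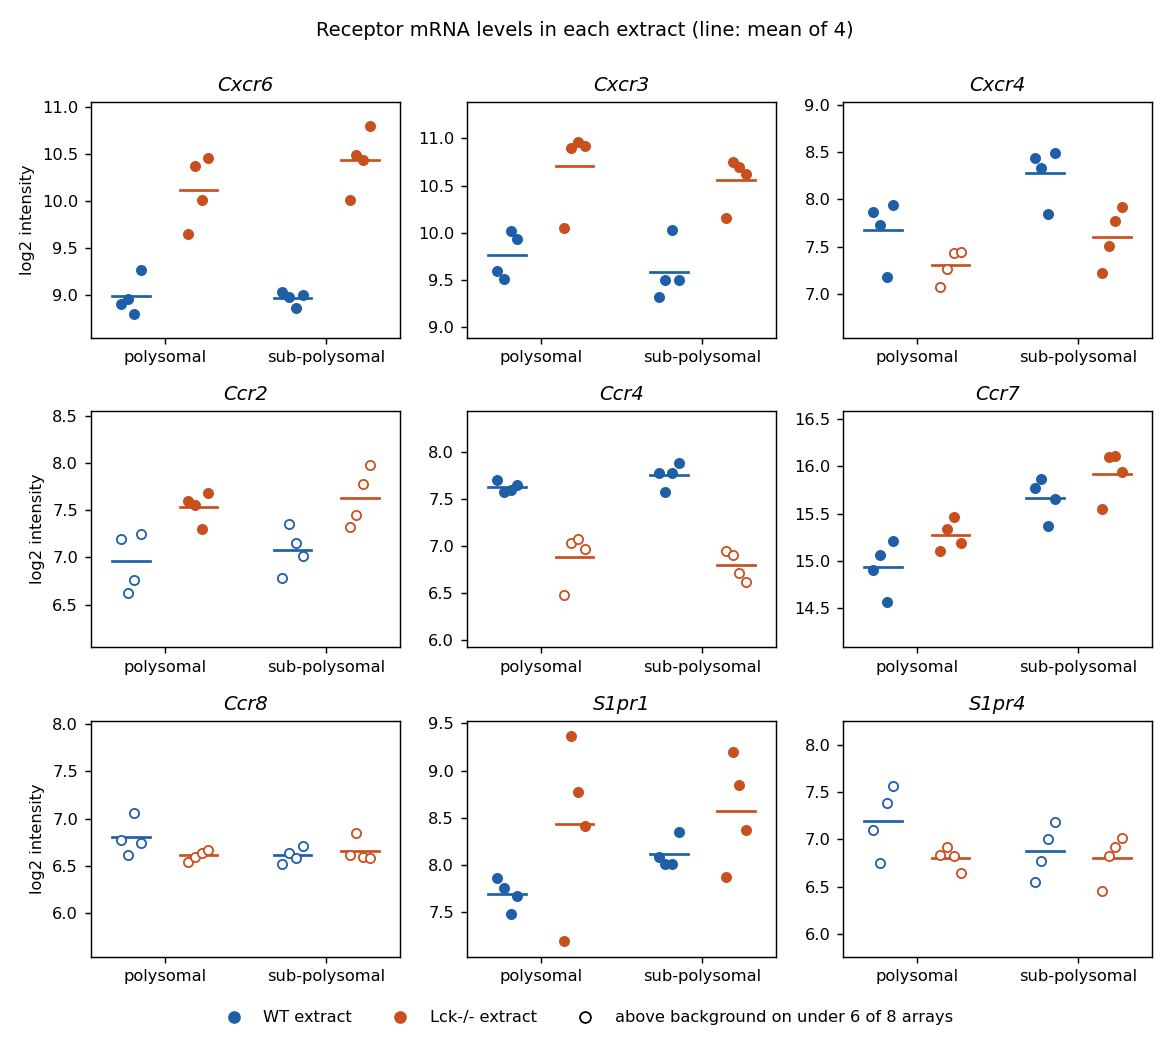
Levels (log2 intensity after normalization, y axis; scales differ between panels) of the 9 receptor mRNAs in polysomal and sub-polysomal RNA (x axis). Each point is an extract (blue WT, orange Lck-/-, replicates 1 to 4 from left to right), the line is the mean of 4, and open points mark groups whose probe was above background on fewer than 6 of 8 arrays. All Cxcr6 and Cxcr3 points of Lck-/- lie above those of WT, and all Ccr4 points lie below.

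Ccr4, the receptor for CCL17 and CCL22 that guides T cells to skin, was the receptor that fell in both fractions. It was dim. Its polysomal channel was above background on 7 of 8 WT and 3 of 8 Lck-/- arrays, and its sub-polysomal channel on 6 and 5. In both fractions it thus entered the test through WT, the group where it was higher. Polysomal levels were 7.70, 7.58, 7.60 and 7.65 in WT and 6.48, 7.04, 7.07 and 6.96 in Lck-/- (log2 intensity). Sub-polysomal levels were 7.77, 7.57, 7.77 and 7.88 in WT and 6.95, 6.91, 6.72 and 6.62 in Lck-/-. In both fractions every Lck-/- extract lay below every WT extract. The difference was -0.95 in the sub-polysomal RNA (SE 0.13, adjusted p = 0.00195), or 1.93-fold lower, and -0.74 in the polysomal RNA (SE 0.16, adjusted p = 0.0135). No fold is given for the polysomal RNA, where most Lck-/- arrays were not above background. The sub-polysomal difference was -0.99 (adjusted p = 0.00720) on slide 1 and -0.92 (adjusted p = 0.0279) on slide 2. The polysomal call was lost on slide 1 alone (-0.76, adjusted p = 0.141) and without WT replicates 1 and 2 (-0.73, adjusted p = 0.106). These sizes depend on the background step, which adds an offset of 50 to every signal. With Agilent's processed signals the differences were -2.03 (adjusted p = 0.00125) in the sub-polysomal and -1.91 (adjusted p = 0.00505) in the polysomal RNA. The mean of both fractions (-0.85) was not tested, since too few arrays passed in both channels. Without the filter on dim probes it passed, with adjusted p = 0.00157.

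Cxcr4, the receptor for CXCL12 that draws cells to bone marrow, was lower in the sub-polysomal RNA. Its levels there were 8.43, 8.33, 7.85 and 8.49 in WT and 7.21, 7.50, 7.77 and 7.92 in Lck-/-. WT replicate 3 lay inside the Lck-/- span, so the groups overlapped. The difference was -0.68 (SE 0.19, adjusted p = 0.0309), 1.60-fold lower. This call was lost under 12 of 20 other settings, among them leaving out any of WT replicates 1, 2 or 4 (-0.62, -0.66 and -0.60, adjusted p = 0.0621, 0.0727 and 0.0685). It was also lost without Lck-/- replicate 1, 2 or 3 (-0.55, -0.64 and -0.73, adjusted p = 0.0645, 0.0584 and 0.0563). It held on slide 1 alone (-0.56, adjusted p = 0.0498) and not on slide 2 alone (-0.79, adjusted p = 0.163). Polysomal Cxcr4 gave -0.37 (SE 0.19, adjusted p = 0.198) and the mean of both fractions -0.52 (SE 0.18, adjusted p = 0.0585). The polysomal probe was above background on 7 of 8 WT and 4 of 8 Lck-/- arrays. With Agilent's processed signals the sub-polysomal difference was -1.05 (adjusted p = 0.0600).

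Ccr2, the receptor for CCL2 on monocytes and some effector T cells, was dim too. Its polysomal channel was above background on 4 of 8 WT and 6 of 8 Lck-/- arrays, and its sub-polysomal channel on 2 and 5. Polysomal levels were 7.20, 6.62, 6.76 and 7.25 in WT and 7.60, 7.55, 7.30 and 7.68 in Lck-/-. The groups did not overlap, and the difference of 0.58 (SE 0.18, adjusted p = 0.0520) just missed the threshold. It passed under 7 of 20 other settings, including Agilent's processed signals (1.60, adjusted p = 0.0112). It passed without WT replicate 4 as well (0.67, adjusted p = 0.0494). On slide 1 alone it was 0.75 (adjusted p = 0.162) and on slide 2 alone 0.40 (adjusted p = 0.198). Without WT replicates 1 and 2 it was 0.53 (adjusted p = 0.206). The mean of both fractions, too dim to be tested, was 6.99, 6.99, 6.96 and 7.13 in WT and 7.46, 7.50, 7.54 and 7.83 in Lck-/-, again without overlap, and without the filter it passed with adjusted p = 0.0101. Of 6 markers of macrophages and monocytes, Csf1r, Cd68 and Itgam stood above background in WT and 2 of these 3 in Lck-/-. In the mean of both fractions Cd68 was lower in Lck-/- (-0.77, adjusted p = 0.00360 by limma). Itgam (-0.70, adjusted p = 0.0720) and Csf1r (0.28, adjusted p = 0.509) were not called. The summed linear intensity of all 6 markers was 2004 to 3416 in WT and 1983 to 2890 in Lck-/- extracts. The part of such cells in the Ccr2 values was not tested.

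Ccr7, which binds CCL19 and CCL21 and keeps T cells in lymph nodes, stood above background on all arrays in both channels. In the mean of both fractions its values were 15.33, 15.46, 14.96 and 15.43 in WT and 15.33, 15.71, 15.78 and 15.56 in Lck-/-. The groups overlapped, with Lck-/- replicate 1 at the level of WT replicate 1. The difference was 0.30 (SE 0.15, adjusted p = 0.182). In the polysomal RNA it was 0.34 (SE 0.17, adjusted p = 0.200) and in the sub-polysomal RNA 0.26 (SE 0.17, adjusted p = 0.282). The sub-polysomal difference depended on scaling. It was 0.83 with median centring (adjusted p = 0.00435), a setting in which all tested genes moved by a median of 0.36. It was 0.58 (adjusted p = 0.0287) with quantile scaling, where that median was 0.07.

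S1pr1, the receptor that lets T cells leave lymph nodes along the S1P gradient, differed between Lck-/- extracts more than any other receptor tested. In the mean of both fractions the WT extracts lay at 7.97, 7.88, 7.74 and 8.01. The Lck-/- extracts lay at 7.53, 9.28, 8.81 and 8.39, so replicate 1 was below all WT extracts and the other 3 were above them. The difference of 0.60 (SE 0.29, adjusted p = 0.161) did not pass, nor did 0.75 in the polysomal RNA (SE 0.36, adjusted p = 0.175) or 0.46 in the sub-polysomal RNA (SE 0.25, adjusted p = 0.193). Without Lck-/- replicate 1 the differences were 0.93 (adjusted p = 0.0107) in the mean, 1.16 (adjusted p = 0.00728) in the polysomal and 0.69 (adjusted p = 0.0376) in the sub-polysomal RNA. With only the array of 50776 bright probes left out, a setting chosen after the data were seen, they were 0.80 (adjusted p = 0.0173), 0.98 (adjusted p = 0.0175) and 0.61 (adjusted p = 0.0425). Slide 2 alone, which does not hold that array, gave 0.90 in the mean (adjusted p = 0.0286), and slide 1 alone 0.31 (adjusted p = 0.667). Cxcr3 and Cxcr6 of replicate 1 were also the lowest of the 4 Lck-/- extracts. The S1pr1 result thus rests on how 1 extract is treated.

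Ccr8, the receptor for CCL1, and S1pr4, an S1P receptor of lymphoid cells, were near background and entered no test. Ccr8 was above background on 2 of 8 WT and 1 of 8 Lck-/- arrays in the polysomal channel, and on 0 and 1 in the sub-polysomal channel. Its 2 probes lay between 6.35 and 6.80 in every group mean. S1pr4 was above background on 5 of 8 WT and 3 of 8 Lck-/- arrays in the polysomal channel and on 3 and 1 in the sub-polysomal channel. Its polysomal levels were 7.10, 6.75, 7.39 and 7.56 in WT and 6.84, 6.92, 6.83 and 6.64 in Lck-/-, and the groups overlapped. A difference in these receptors was not detectable at this signal.

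**Figure D2:**
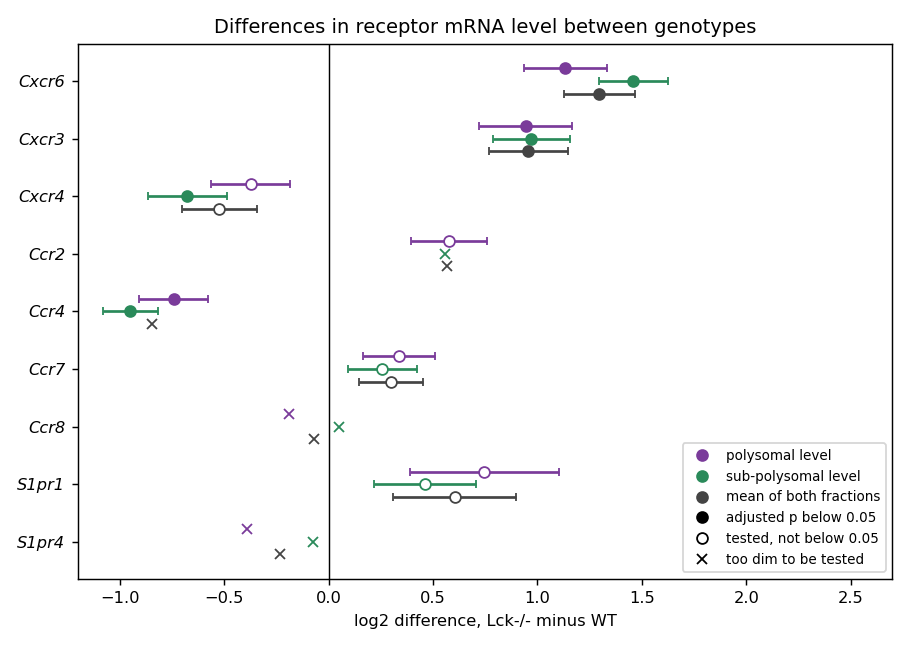
Differences in log2 level between genotypes (x axis, Lck-/- minus WT) for each receptor (y axis) in the polysomal RNA, the sub-polysomal RNA and their mean. Bars are moderated standard errors of 4 against 4 extracts; filled points had an adjusted p below 0.05, open points did not, and crosses were too dim to be tested. Cxcr6 and Cxcr3 lie right of 0 and Ccr4 left of 0 in both fractions.

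The receptors' calls stand against a wide change of the transcriptome. In the mean of both fractions 2 of 5 tested receptors were called, both higher, against 20.7% of 9073 genes (9.34% higher and 11.3% lower). In the polysomal RNA 3 of 7 were called, 2 higher and 1 lower, against 15.0% of 10292 genes (5.60% higher and 9.37% lower). In the sub-polysomal RNA 4 of 6 were called, 2 higher and 2 lower, against 19.3% of 9703 genes (8.54% higher and 10.8% lower). Groups without overlap were found for 2 of 5, 4 of 7 and 3 of 6 tested receptors, against 25.9%, 22.6% and 25.9% of genes. Ccr4, polysomal Ccr2, and Cxcr4 in the polysomal RNA and in the mean, entered these tests through 1 genotype only, so these counts describe the receptors and support nothing further. The median difference of the tested receptors was 0.60 in the mean, 0.58 in the polysomal and 0.36 in the sub-polysomal RNA, against 0.04, -0.00 and 0.05 over all genes tested.

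The ratio of polysomal to sub-polysomal RNA tells how much of an mRNA sat on polysomes, relative to the typical mRNA, which loess sets near 0 on each array. Of the 9 receptors, 4 were bright enough in both channels, and 0 of these were called by limma, with 1 at an unadjusted p under 0.05. The share of all genes at that unadjusted p was not counted. Over all 8263 genes 3.86% were called, 2.81% higher and 1.05% lower in Lck-/-. None of the 4 was free of overlap between the groups, against 14.5% of genes. Cxcr6, the receptor with that unadjusted p, had ratios of -0.12, -0.02, -0.06 and 0.26 in WT and -0.36, -0.12, -0.43 and -0.34 in Lck-/-. The groups met at Lck-/- replicate 2, and the difference was -0.33 (SE 0.13, unadjusted p = 0.0292, adjusted p = 0.195). Its ratio stood at percentile 47.9 of all tested genes in WT and at percentile 27.7 in Lck-/-. Cxcr3 had a ratio of 0.18 ± 0.22 in WT and 0.15 ± 0.18 in Lck-/- (SD, n = 4 each), a difference of -0.03 (SE 0.15, adjusted p = 0.940).

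After loess, Ccr7 mRNA was the least polysomal of the 4 in both genotypes. Its ratios were -0.87, -0.80, -0.81 and -0.45 in WT and -0.44, -0.76, -0.65 and -0.75 in Lck-/-, all below 0. They put Ccr7 at percentile 12.0 in WT and 9.51 in Lck-/-, with a difference of 0.08 (SE 0.14, adjusted p = 0.777). In the authors' deposited table Ccr7 ratios lay between -0.51 and -0.27 in Lck-/- and between 0.62 and 1.71 in WT. There S1pr1 lay lower than Ccr7 in WT on average, between 0.41 and 1.23, so the ranking held in Lck-/- only. S1pr1 had ratios of -0.23, -0.26, -0.53 and -0.67 in WT and -0.68, 0.16, -0.08 and 0.04 in Lck-/-. Replicate 1 again stood apart, and the difference was 0.29 (SE 0.19, adjusted p = 0.429). Among the receptors too dim for this test, Cxcr4 had ratios of -0.57, -0.60, -0.67 and -0.56 in WT and -0.14, -0.24, -0.33 and -0.47 in Lck-/-, which do not overlap. Both of its channels were above background on 6 of 8 WT and 3 of 8 Lck-/- arrays.

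These ratios are relative to an overall shift. Without normalization the median log2 ratio of all genes was 1.04 to 1.73 in WT extracts and 0.21 to 0.78 in Lck-/- extracts. Median centring left a median difference of -0.78, and the authors' deposited table one of -1.15, over all tested genes. Against these shifts Cxcr6 differed by -0.87 and -1.29, Cxcr3 by -0.73 and -1.10 and Ccr7 by -1.07 and -1.46. These values passed the test with adjusted p of 0.0210 and 0.000171, 0.0477 and 0.00112, and 0.00615 and 2.87e-05. They lay close to the shift of all genes. S1pr1 lay at 0.04 (adjusted p = 0.914) and, in the authors' deposited table, at -0.20 (adjusted p = 0.542). With each column of the authors' deposited table centred, S1pr1 was the 1 receptor called, with 0.99 (adjusted p = 0.00791).

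**Figure D3:**
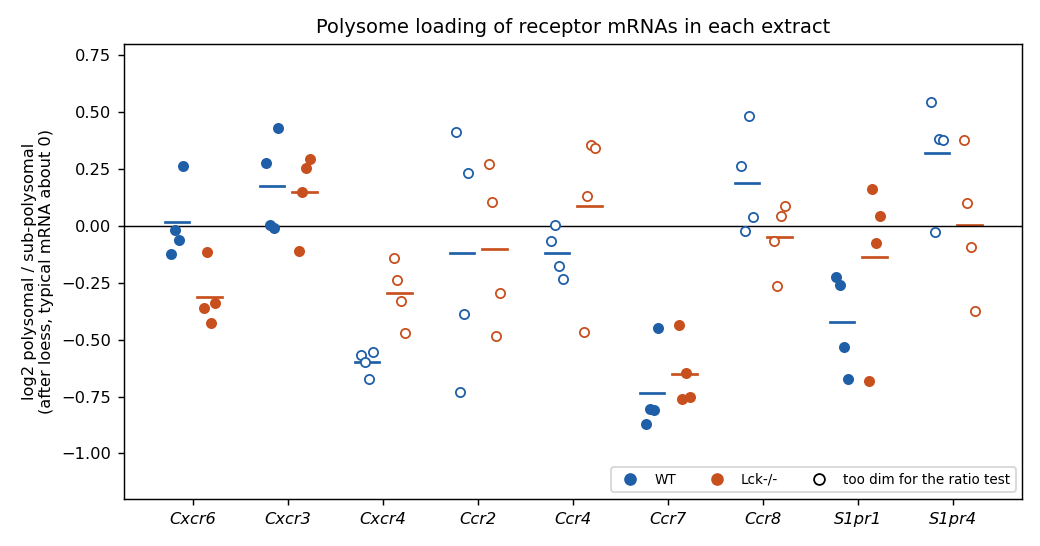
Log2 ratio of polysomal to sub-polysomal RNA (y axis, after loess) of each receptor (x axis) in each extract (blue WT, orange Lck-/-; line: mean of 4). Open points mark receptors too dim in 1 or both channels for the test. All Ccr7 ratios lie below 0, between -0.87 and -0.44, and the 4 tested receptors overlap between genotypes.

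Other chemokine receptors were mostly dim. Of 17 listed, 2 could be tested in the mean of both fractions and 0 were called by limma, against 20.7% of all genes. As 0 were bright enough for the ratio test, both entered through 1 genotype only. Cxcr5, which guides cells to B cell follicles, differed by 0.76 (SE 0.29, adjusted p = 0.0829), and passed without Lck-/- replicate 1 (1.02, adjusted p = 0.0203). Single fractions added 2 calls, named after their values were seen. They were 1 of 3 tested in the polysomal and 1 of 2 in the sub-polysomal RNA, against 15.0% and 19.3% of all genes. Cxcr5 rose by 1.01 in the sub-polysomal RNA (SE 0.26, adjusted p = 0.0212), a call lost without Lck-/- replicate 3 (0.83, adjusted p = 0.0637) or 4 (0.89, adjusted p = 0.0609). Ccr6, the receptor for CCL20, rose by 0.76 in the polysomal RNA (SE 0.16, adjusted p = 0.0121). Its level there was 7.57 in WT and 8.33 in Lck-/-, and its sub-polysomal channel was too dim to be tested. The Cxcr5 and Ccr6 calls were lost without WT replicates 1 and 2 (0.82, adjusted p = 0.118, and 0.71, adjusted p = 0.112).

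The ligands of these receptors are made mainly by other cells, and 3 of 13 on the array were bright enough. None was called in the mean of both fractions by limma, against 20.7% of all genes. Ccl17, a ligand of CCR4, differed by 0.60 (SE 0.26, adjusted p = 0.116) and passed without WT replicate 3 (0.83, adjusted p = 0.0376). Cxcl10, a ligand of CXCR3, differed by 0.51 (SE 0.20, adjusted p = 0.0955) and also passed without WT replicate 3 (0.72, adjusted p = 0.0158). Cxcl11, another ligand of CXCR3, differed by 0.11 (SE 0.14, adjusted p = 0.593). Single fractions gave 3 calls, named after their values were seen. In the polysomal RNA 1 of 3 tested rose, against 5.60% of all genes. In the sub-polysomal RNA 1 of 4 rose and 1 fell, against 8.54% and 10.8%. Cxcl10 rose by 0.71 in the sub-polysomal RNA (SE 0.21, adjusted p = 0.0343). This call was lost under 14 of 20 other settings, among them leaving out any of WT replicates 1, 2 or 4 or Lck-/- replicates 2 to 4 (0.62 to 0.70, adjusted p up to 0.0919). Cxcl11 rose by 0.75 in the polysomal RNA (SE 0.23, adjusted p = 0.0450) and fell by 0.53 in the sub-polysomal RNA (SE 0.15, adjusted p = 0.0349). The mean of its brightest probe thus joins opposite differences. The polysomal call was lost under 16 of 20 other settings, among them leaving out any of WT replicates 1 to 3 or Lck-/- replicates 2 to 4 (0.58 to 0.86, adjusted p up to 0.123). The sub-polysomal call was lost under 13, among them leaving out WT replicate 2 or 3 or any Lck-/- extract (-0.58 to -0.45, adjusted p up to 0.101), and the sign turned under 2 more, median centring (0.056) and quantile scaling (0.041). Without both WT replicates 1 and 2, Cxcl10 (0.44, adjusted p = 0.225), polysomal Cxcl11 (0.81, adjusted p = 0.143) and sub-polysomal Cxcl11 (-0.48, adjusted p = 0.130) were not called. The brightest Cxcl11 probe shares a stretch of 20 bases with 5 probes of other genes, and its second probe with 0. The second probe gave 0.39 in the polysomal and 0.13 in the sub-polysomal RNA. The sub-polysomal fall was thus seen with the brightest probe only.

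S1P is made by sphingosine kinases and removed by a lyase and by phosphatases. Of 13 genes of other S1P receptors and of S1P metabolism, 5 were tested in the mean, 3 rose and 1 fell, against 9.34% and 11.3% of all genes. Sgpl1, the S1P lyase, rose by 0.54 (SE 0.15, adjusted p = 0.0261), and Sphk2, a sphingosine kinase, by 0.48 (SE 0.13, adjusted p = 0.0248). Sgpp1, an S1P phosphatase, rose by 0.45 (SE 0.13, adjusted p = 0.0374). Plpp2, a lipid phosphatase, fell by 0.86 (SE 0.23, adjusted p = 0.0262). The genes that rose thus include a maker and 2 removers of S1P. These calls were weak, and lost under 6 of 20 other settings for Sgpl1 and Sphk2, 9 for Sgpp1 and 8 for Plpp2. Sgpl1 lost its call without WT replicate 1 or 3 or Lck-/- replicate 3 or 4 (0.44 to 0.54, adjusted p up to 0.0766). Sphk2 lost it without WT replicate 2 or 3 or Lck-/- replicate 3 or 4 (0.41 to 0.50, adjusted p up to 0.0753). Sgpp1 lost it without any of WT replicates 1 to 3 or Lck-/- replicates 2 to 4 (0.36 to 0.50, adjusted p up to 0.0945). Plpp2 lost it without any of WT replicates 2 to 4 or Lck-/- replicate 1 or 3 (-0.85 to -0.70, adjusted p up to 0.0718). Without both WT replicates 1 and 2, Plpp2 alone of these 4 was called (-1.18, adjusted p = 0.0143).

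Of 10 tested factors known to control these receptors, 5 rose in the mean of both fractions and 0 fell, against 9.34% and 11.3% of all genes. The list was drawn up with earlier results of these libraries known, so the count is not independent evidence. Eomes and Tbx21 encode the T-box factors of effector and memory CD8 T cells, and T-bet is known to activate Cxcr3. Eomes rose by 2.06 (SE 0.33, adjusted p = 0.00281) and Tbx21 by 0.97 (SE 0.15, adjusted p = 0.00280). All 4 NK cell markers, cells that also express both factors, were not above background, with a summed linear intensity of 437 to 544 in WT and 524 to 876 in Lck-/-. Klf2, which switches on S1pr1, rose by 1.16 (SE 0.25, adjusted p = 0.0102). Cd69, whose protein takes S1PR1 off the cell surface, rose by 0.49 (SE 0.15, adjusted p = 0.0425), a call lost under 12 of 20 settings. Gata3, named after its value was seen, rose by 0.62 (SE 0.20, adjusted p = 0.0459) and lost its call under 15 of 20. Cd69 lost it without any of WT replicates 1 to 3 or Lck-/- replicates 2 to 4 (0.36 to 0.55, adjusted p up to 0.106), and Gata3 without any WT extract or Lck-/- replicate 3 or 4 (0.44 to 0.67, adjusted p up to 0.120). Without both WT replicates 1 and 2, Eomes (2.00, adjusted p = 0.0267), Tbx21 (1.13, adjusted p = 0.0143) and Klf2 (1.32, adjusted p = 0.0239) were called.

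Genes of signalling and desensitisation downstream of the receptors changed in both directions. Of 32 tested in the mean 8 rose and 4 fell, against 9.34% and 11.3% of all genes. Their median difference was 0.25, against 0.04 over all genes. Elmo1, part of the DOCK2 complex that activates Rac in migrating cells, rose by 0.89 (SE 0.14, adjusted p = 0.00259), from 7.48 to 8.37. Elmo1 was too dim for the ratio test, so it entered this test through 1 genotype only. RGS proteins switch G protein signals off. Rgs3 rose by 0.73 (SE 0.17, adjusted p = 0.0125), but the mean of its probes gave 0.16 (adjusted p = 0.335), so its probes disagree. Rgs10 fell by 1.14 (SE 0.20, adjusted p = 0.00401) and Rgs2 fell by 1.19 (SE 0.25, adjusted p = 0.00915). The other 2 that fell, named after their values were seen, were Arrb1, an arrestin that uncouples receptors (-1.12, SE 0.27, adjusted p = 0.0158), and the G protein subunit gene Gng5 (-1.13, SE 0.28, adjusted p = 0.0177). The Gng5 call was lost without Lck-/- replicate 3 (-1.05, adjusted p = 0.0503). Without both WT replicates 1 and 2, Elmo1 (0.99, adjusted p = 0.0199) and Rgs10 (-0.82, adjusted p = 0.0381) were called, and Rgs2 (-0.93, adjusted p = 0.0780), Rgs3 (0.80, adjusted p = 0.0533), Arrb1 (-1.12, adjusted p = 0.0724) and Gng5 (-1.27, adjusted p = 0.0534) were not. None of the 30 genes of this list tested in the ratio was called by limma, against 3.86% of all genes.

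**Figure D4:**
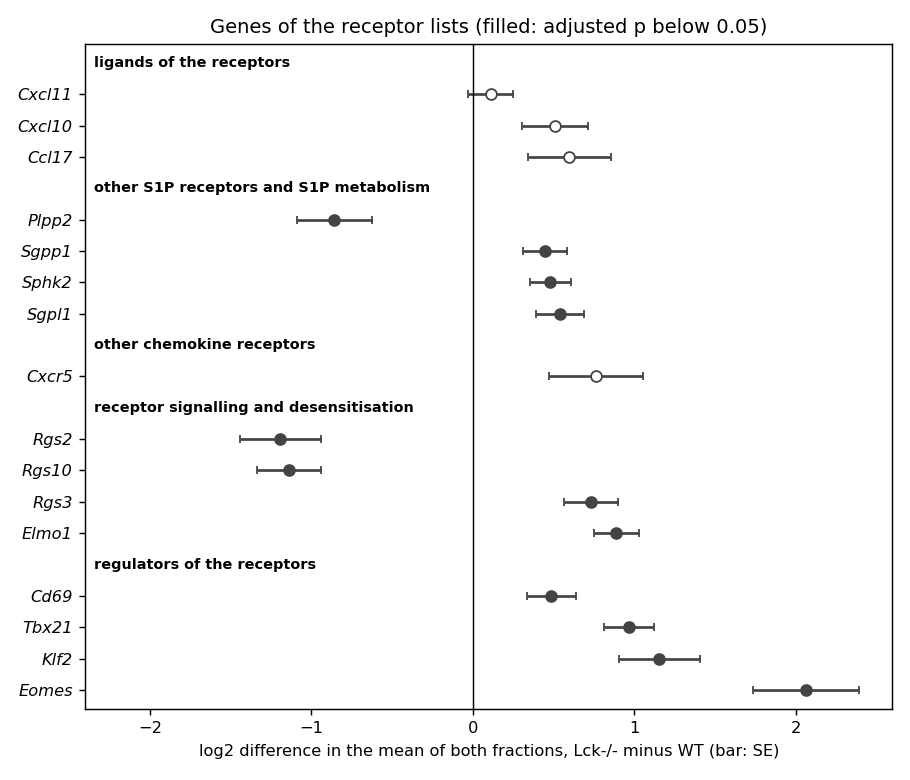
Differences in the mean of both fractions between genotypes (x axis, log2, Lck-/- minus WT; bars are standard errors, 4 against 4 extracts) of the named genes of 5 lists around the receptors (y axis). Filled points had an adjusted p below 0.05. Of the genes drawn, Eomes shows the largest rise, 2.06, and Rgs2 and Rgs10 lie lowest, at -1.19 and -1.14.

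Some genes had profiles over the 16 levels (8 extracts, 2 fractions) close to those of a receptor. Likeness was the root-mean-square difference in log2 between profiles, each centred on its own mean, over 7867 genes tested in all comparisons. For Cxcr6 the nearest were Pomgnt2 (0.23) and Pced1b (0.27), against a median of 0.75 over all genes. For Cxcr3 they were Adam19 (0.19) and Pik3r5 (0.29), against 0.63. Pik3r5 is also 1 of the 8 genes of the signalling list that rose (0.54, adjusted p = 0.0268). For S1pr1 they were Ddx58 (0.24) and Pigg (0.29), against 0.66. For Ccr7 they were Samsn1 and Yy1 (0.17 each), against 0.55. The levels share extracts, arrays and normalization, so this is a description.

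The values of the tested receptors under other settings are plotted for the mean of both fractions. Median centring cannot move this mean, so that setting only repeats the reported values. Crossed dye swaps cannot move the differences either, and changed only their SE. Cxcr6 ranged from 1.18 to 1.45 and kept its call in 20 of 20 settings. Cxcr3 ranged from 0.76 to 1.13 and kept its call in 19. S1pr1 ranged from 0.31 to 0.93 and passed in 3.

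**Figure D5:**
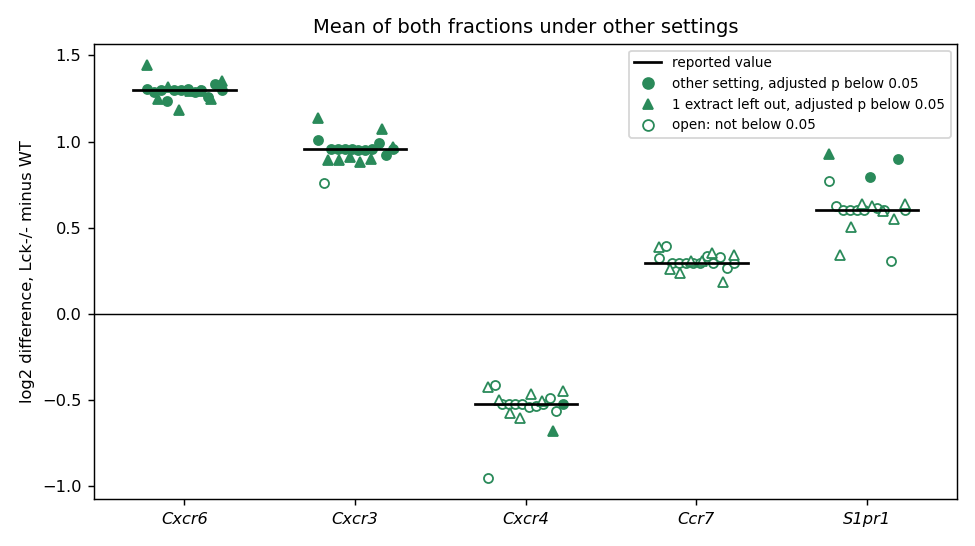
Differences in the mean of both fractions (y axis, log2, Lck-/- minus WT) of the 5 tested receptors (x axis) under each other setting. Black lines are the reported values, circles other settings and triangles fits without 1 extract; filled symbols had an adjusted p below 0.05. Cxcr6 is filled throughout, and S1pr1 is filled in 3 settings. Median centring repeats the reported values by construction.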

How the data were processed

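The members and gene lists were chosen with earlier results of these data known. The authors scanned the arrays with Agilent Feature Extraction 10.7.3.1, per the file headers, with probe coordinates on mm9. They deposited raw spot and background intensity, processed intensity corrected for background and dye by that software, and a flag per spot (unit other) for signal over background, saturation and outliers. Their deposited table of the series gives log2 ratios, polysomal to sub-polysomal. The submitters' processing notes name limma, with no version and no normalization.

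The values were computed with limma 3.58.1 on R 4.3.3 (reading files through version 1.17.8 of data.table). Mean intensities were corrected with normexp (offset 50), ratios normalised by loess and levels by Aquantile, and dye-swapped arrays averaged per extract. Each array had 62976 spots, 3671 of them controls, which were left out, and 55681 probes. RefSeq named 31381 probes, and the brightest probe stood for each of 22328 genes. A gene was tested for a level when that channel was well above background on at least 6 of 8 arrays of 1 genotype, for the mean when both channels were, and for the ratio when both were in each genotype. Differences were tested with limma over all genes, n = 4 extracts per genotype, with Benjamini-Hochberg adjustment (threshold 0.05). The SE printed is limma's moderated one. The number of arrays limits the precision. Named genes were the 9 receptors, Lck and, of each list, up to 4 genes with the smallest p in the mean, of which 1 is not reported here. Added after the data were seen was the setting without 1 array of Lck-/- replicate 1.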

Additional observations from a re-analysis of the deposited data

Results flagged for a closer look

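Single extracts stood far from the other 3 of their genotype in 7 of 114 groups examined, where chance gives about 1 in 20. Cxcr3 of Lck-/- replicate 1 lay at 10.1 in the mean of both fractions, against 10.77 to 10.83 in the other 3, and at 10.05 in the polysomal RNA, against 10.90 to 10.96. The ratio of Ccr7 was -0.45 in WT replicate 4, against -0.87 to -0.80. Ccr8, near background, lay at 6.85 in the sub-polysomal RNA of Lck-/- replicate 2, against 6.58 to 6.61. Rgs2 lay at 10.69 in WT replicate 4, against 11.70 to 11.80, in the mean of both fractions. Lck lay at 14.67 in the sub-polysomal RNA of WT replicate 3, against 14.89 to 14.94, and its ratio was 0.55 in Lck-/- replicate 2, against 0.09 to 0.16.

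The polysomal ratio of 2 list genes differed between genotypes by the test of the difference itself. Cxcl11, a ligand of CXCR3, rose by 1.28 (SE 0.28, adjusted p = 0.0288). This call was lost under 16 of 21 other settings, among them leaving out any of WT replicates 1 to 3 or Lck-/- replicates 2 to 4 (1.04 to 1.39, adjusted p up to 0.0927), and the sign turned in the authors' deposited table (-0.34). Its brightest probe shares a stretch of 20 bases with 5 probes of other genes, and its second probe gave 0.26. Mfsd2b, an S1P exporter, rose by 2.38 (SE 0.27, adjusted p = 0.00157), from -3.55 in WT to -1.18 in Lck-/-. Its second probe, near background, gave 0.01. MFSD2B exports S1P from red cells and platelets, and the 2 red cell markers on the array had a summed linear intensity of 232 to 343 in WT and 304 to 1405 in Lck-/-. The part of the probes or of such cells in these values was not tested.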

How the results depend on the processing

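Gene counts and receptor calls moved with the settings. In the ratio 319 genes were called, against 177 with Agilent's signals, 204 without the filter, 41 with crossed dye swaps, 86 without WT replicates 1 and 2, 188 on slide 1, 37 on slide 2 and 103 to 443 with 1 extract left out. Median centring gave 4688 (32 higher, 4656 lower), the authors' deposited ratios 7452 (25 and 7427) and their centred columns 728, with 3, 3 and 1 receptors called, against 0 (0 to 0 with 1 extract left out). In the mean, 1875 became 817 without WT replicates 1 and 2, 840 and 1152 on slides 1 and 2, and 965 to 2310 with 1 extract left out, and the 2 receptors became 4 without the filter, 1 without WT replicates 1 and 2, and 2 to 3 with 1 extract left out. In the polysomal RNA, 1540 became 697 with crossed dye swaps, 260 without WT replicates 1 and 2, 91 on slide 1 and 713 to 2454 with 1 extract left out, and the 3 receptors became 0 without WT replicates 1 and 2, 0 on slide 1, 5 without the array of 50776 bright probes and 2 to 4 with 1 extract left out. Median centring gave 51 higher and 2180 lower there, against 576 and 964. In the sub-polysomal RNA, 1873 became 3878 with median centring (3548 higher, 330 lower), 1060 with crossed dye swaps, 1062 without WT replicates 1 and 2, 177 on slide 2 and 998 to 1964 with 1 extract left out, and the 4 receptors became 2 without WT replicates 1 and 2 and 3 to 4 with 1 extract left out. With the replicate number as a block, the ratio gave 179 and the sub-polysomal RNA 1142. Deviations of same-numbered extracts correlated at -0.24 to 0.26 in the ratio and at -0.21 to 0.44 in the mean, highest for replicate 3. As the values of WT replicates 1 and 2 may mix both extracts, this cannot decide whether the numbers pair the samples.

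Reversed signs occurred for Ccr7 in the ratio (-0.37 with Agilent's signals, -1.07 with median centring, -0.022 without WT replicates 1 and 2, -0.075 on slide 2, -1.46 in the authors' ratios, -0.27 after centring them) and in the polysomal RNA (-0.24 with median centring). Cxcr3 in the ratio spanned -0.089 to 0.058 with 1 extract left out (above 0 without WT replicate 1 or 4 or Lck-/- replicate 1), and was 0.013 without the Cy5 array of Lck-/- replicate 1 and 0.092 in the centred authors' ratios. The Lck ratio was 0.11 on slide 2, S1pr1 -0.20 and Cxcl11 -0.34 in the authors' ratios, and sub-polysomal Cxcl11 0.056 with median centring and 0.041 with quantile scaling. The causes were not tested. Over all named genes, tested values kept direction and call 915 times under other settings, lost the call 161 times, gained it 34 times and turned sign 17 times. Of 347 values without a test, 21 turned sign, among them dim Ccr2 in the ratio, and 22 moved by over 1 SD. Dim probes limit Ccr2, Ccr4, Ccr8 and S1pr4, and Cxcr4 in the polysomal RNA, the mean and the ratio.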
